A study of Glycine max with 42 samples.

Results

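The evening part of the plant circadian clock was followed, as 9 genes, through all leaf libraries of a soybean (Glycine max) series. The 9 were picked by gene identifier, and earlier results of these data were known when they were chosen. They are J/ELF3 (Glyma.04G050200), LUX1 (Glyma.12G060200), LUX2 (Glyma.11G136600), E2/GIa (Glyma.10G221500), a further GIGANTEA copy (Glyma.20G170000) and 4 TOC1 copies. The TOC1 copies are Glyma.04G166300, Glyma.06G196200, Glyma.05G025000 and Glyma.17G102200, called 04G, 06G, 05G and 17G here after the chromosome part of their identifiers. They make up 9 of the 39557 genes listed in either deposited table, and all 9 are listed in both tables. The gene names come from the list of members, since the deposited tables carry identifiers only.

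The circadian clock of plants is a loop of repressors that take turns through the day and night. ELF3 and the LUX transcription factors, with ELF4, form the evening complex, which binds DNA through LUX and represses its targets around dusk. GIGANTEA (GI) is an evening protein that stabilises a light-sensing F-box protein and links the clock to flowering, and TOC1 represses the morning genes of the loop. In soybean, J is the ELF3 gene behind the long-juvenile trait and E2 is a GI gene among the maturity loci that set flowering time. Because such genes swing with the hour of the day, and the labels give the day and not the hour of harvest, a difference in hour and a difference between groups cannot be told apart in any comparison below.

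RNA was taken from trifoliate leaves, with 3 libraries in each of 14 groups, 42 libraries in all. In the cultivar Williams 82, an initial group was sampled at day 38 after planting, at the R2 flowering stage, and later samplings at days 45, 54, 64 and 76 each held depodded plants and controls. In line T295H, an initial group was sampled at day 28, also at R2, and at days 35 and 63 sterile plants were set beside controls. Depodding removes the pods by hand, and in the sterile plants the seed sink was limited genetically. The labels name no gene or allele behind the sterility, and they do not say whether the initial plants were of the control or the limited kind. Whether the 3 libraries of a group are 3 plants is not given either. The p-values therefore reflect the spread among libraries, part of which may be technical.

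The study asked how leaf expression changes from flowering to senescence when the sink is limited by hand or by genotype. Values are normalised counts per gene and library. The depth recovered from them was 6663477 to 13166094 counts for a Williams 82 library and 5471456 to 11877733 for a T295H library. Each table was normalised on its own, so levels are compared within a line and never between lines, and gene lengths are not at hand, so levels are not compared between genes. Two-sided tests were made with limma on log2(normalised count + 1), p-values were adjusted by Benjamini-Hochberg over all genes tested, and a gene is called changed at an adjusted p under 0.05. Adding 1 draws the fold change of a low gene towards no change. The log2 change also compares means of logs, so a library at 0 among higher ones can carry it past the ratio of the group means. All 9 genes passed the filter of a table mean of at least 10 in both lines. LUX1 in Williams 82 passed through its highest group alone, with a table mean of 14.2 that is 9.63 without the controls of day 76. It therefore had to be high in that group. Where a comparison uses these controls, LUX1 is not counted among the genes that passed and is left out of the median, and the adjusted p of a difference that passed is given from a fit with no filter on low values. In whole leaves, fewer cells of a type and less RNA per cell cannot be told apart.

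The late Williams 82 samplings carry labels that disagree. The depodded libraries with the time point label of day 64 have the sampling number 5 in their titles, which the controls have at day 76. The depodded libraries labelled day 76 have the number 4, which the controls have at day 64. The time point label is used first, the comparison by title number is given beside it, and the pooled comparison of all 6 late depodded with all 6 late control libraries does not depend on either. In the T295H initial group, 1 library (replicate 2) stands apart: its 10 most abundant genes hold 41.3% of its counts, the highest share of the 15 libraries of that line.

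In T295H, sterile leaves of day 63 had less evening clock mRNA than their controls: 6 of the 9 genes were lower and none was higher. Without any 1 of the 6 libraries the number was 3 to 5. The 6 were J/ELF3, LUX1, LUX2 and the TOC1 copies 04G, 05G and 17G, while both GI genes and TOC1 06G did not pass the test. Of all 29370 genes tested there, 50.3% were called, and 23.6% were called lower. The median log2 change of the 9 genes was -0.87, against 0.02 over all genes tested. At day 35, limma called none of the 9 (0.177% of all genes), 1 had an unadjusted p under 0.05, edgeR called 0 and DESeq2 called 1. DESeq2 called more of all 29370 genes there, 490 higher and 336 lower, against 28 and 24 with limma and 34 and 27 with edgeR. In fertile control leaves of the same line, 7 of the 9 were higher at day 63 than in the initial leaves, where 63.4% of all genes were called and 31.3% were called higher. That median was 1.70 on the log2 scale, against 0.02 over all genes. The control groups of day 63 serve in both comparisons, so their values stand side by side and are not independent.

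In Williams 82, no such common shift with depodding was found. None of the 9 genes passed at day 45 (0.0103% of all 29208 genes tested) or at day 54 (0.88%). At day 45, 2 genes had an unadjusted p under 0.05, both lower in depodded leaves, and at day 54 there was 1, which was higher. EdgeR and DESeq2 also called 0 of the 9 at both days. Of all 29208 genes, edgeR called 0 at day 45, and 112 higher and 93 lower at day 54. DESeq2 called 71 higher and 59 lower at day 45, and 671 and 704 at day 54. In the pooled late comparison limma called 0 as well, where 33% of all genes were called, with 1 gene at an unadjusted p under 0.05, 0 calls by edgeR and 1 by DESeq2. Of all 29208 genes, edgeR called 5302 higher and 4520 lower there, and DESeq2 5799 and 5070. The median log2 change of the 8 genes other than LUX1 in the pooled late comparison was 0.00, against 0.03 over all genes. With age, 4 of these 8 genes were higher and none lower at day 76, in controls set against initial leaves, where 43.8% of all genes were called and 20.1% were called higher. The 4 were E2/GIa, the GI copy and the TOC1 copies 06G and 05G, of which a fit of only these 6 libraries called 2, both GI genes. The median of the 8 was 1.04 on the log2 scale, against 0.04 over all genes.

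**Figure D1:**
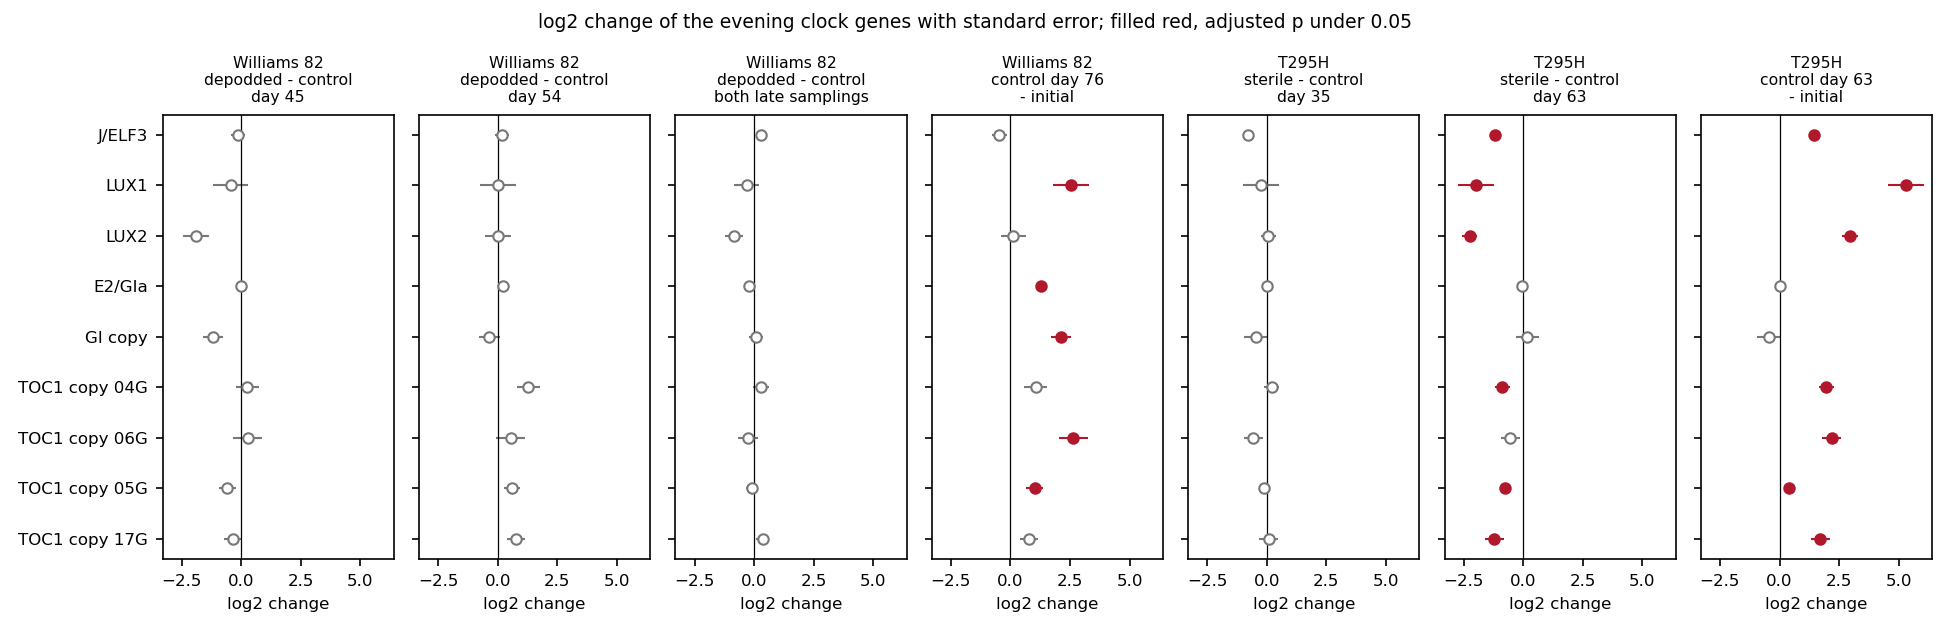
Each panel plots the log2 change of the 9 genes in 1 comparison on the x axis, on the log2(normalised count + 1) scale, with the standard error as a bar; filled red points have an adjusted p under 0.05. In sterile leaves of day 63, 6 genes are called lower, and in the panels of depodding at days 45 and 54 and of both late samplings none is called. In the panel of controls of day 76 against initial leaves, 5 points are red. LUX1 is 1 of them, which passed the filter only through those controls and is not counted in the text.

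J/ELF3, the scaffold of the evening complex, was lower in sterile leaves than in controls. At day 63 it stood at 429, 405 and 678 in the sterile libraries and at 1048, 1220 and 1048 in the controls, so that every sterile library was below every control, which held for 6 of the 9 genes and for 29.9% of all genes tested. The means were 504 ± 151 and 1105 ± 99.7 (SD, n = 3), a log2 change of -1.17 (SE 0.20, adjusted p 0.000219, limma). At day 35 it stood at 261, 235 and 322 in sterile leaves and at 384, 517 and 528 in controls. The groups did not overlap there either, but the log2 change of -0.80 (SE 0.20) had an adjusted p of 0.117 with limma. A fit of only these 6 libraries (adjusted p 0.0442) and DESeq2 (0.0251) put it past the threshold. Of all genes tested, 13.1% were lower without overlap in sterile leaves of day 35. The difference between both days' effects, -0.37 (SE 0.28, adjusted p 0.371), did not pass.

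Over time in T295H, ELF3 rose in controls from initial leaves, and between days 35 and 63 in both kinds of plant. From the initial 373, 386 and 467, controls rose by 1.44 on the log2 scale to day 63 (SE 0.20, adjusted p 1.63e-05), while sterile leaves of day 63 differed from the initial leaves by 0.27 (adjusted p 0.326). Between days 35 and 63, the log2 change was 1.22 (adjusted p 9.17e-05) in controls and 0.86 (adjusted p 0.00621) in sterile leaves. Over that span 6 of the 9 genes were higher in controls, where 60.4% of all genes were called, and 3 in sterile leaves, where 25.4% were. The 3 in sterile leaves were ELF3, LUX1 and TOC1 06G, and without any 1 of the 6 libraries only 1 to 2 were called. The call of 06G (log2 change 1.24, adjusted p 0.0317) was lost without any 1 of 4 of these libraries, with adjusted p-values of 0.0791 to 0.122. Against initial leaves, 3 of the 9 were higher in sterile leaves of day 63 (34% of all genes called) and 0 in controls of day 35 (11.6%). In these controls 1 gene had an unadjusted p under 0.05, and edgeR and DESeq2 called 0 of the 9. Of all 29370 genes, edgeR called 1290 higher and 1895 lower there, and DESeq2 1619 and 2836.

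ELF3 had another course in Williams 82. Its group means were 233 ± 84.1 in initial leaves, 383 ± 83.6 in controls of day 45, 308 ± 27.7 at day 54, 170 ± 31.6 at day 64 and 163 ± 37.9 at day 76 (SD, n = 3). Neither the change from initial leaves to day 76, -0.46 on the log2 scale (SE 0.30, adjusted p 0.228), nor that between controls of days 54 and 64, -0.87 (SE 0.30, adjusted p 0.247), passed the test. Without initial replicate 3, the former was -0.79 with an adjusted p of 0.0458. Depodded leaves differed from controls by -0.13 at day 45 (SE 0.30), 0.18 at day 54 (SE 0.30) and 0.29 over both late samplings (SE 0.21, adjusted p 0.316). The depodded libraries of day 45 were uneven, at 246, 639 and 259, with a mean of 381 that is 252 without replicate 2.

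**Figure D2:**
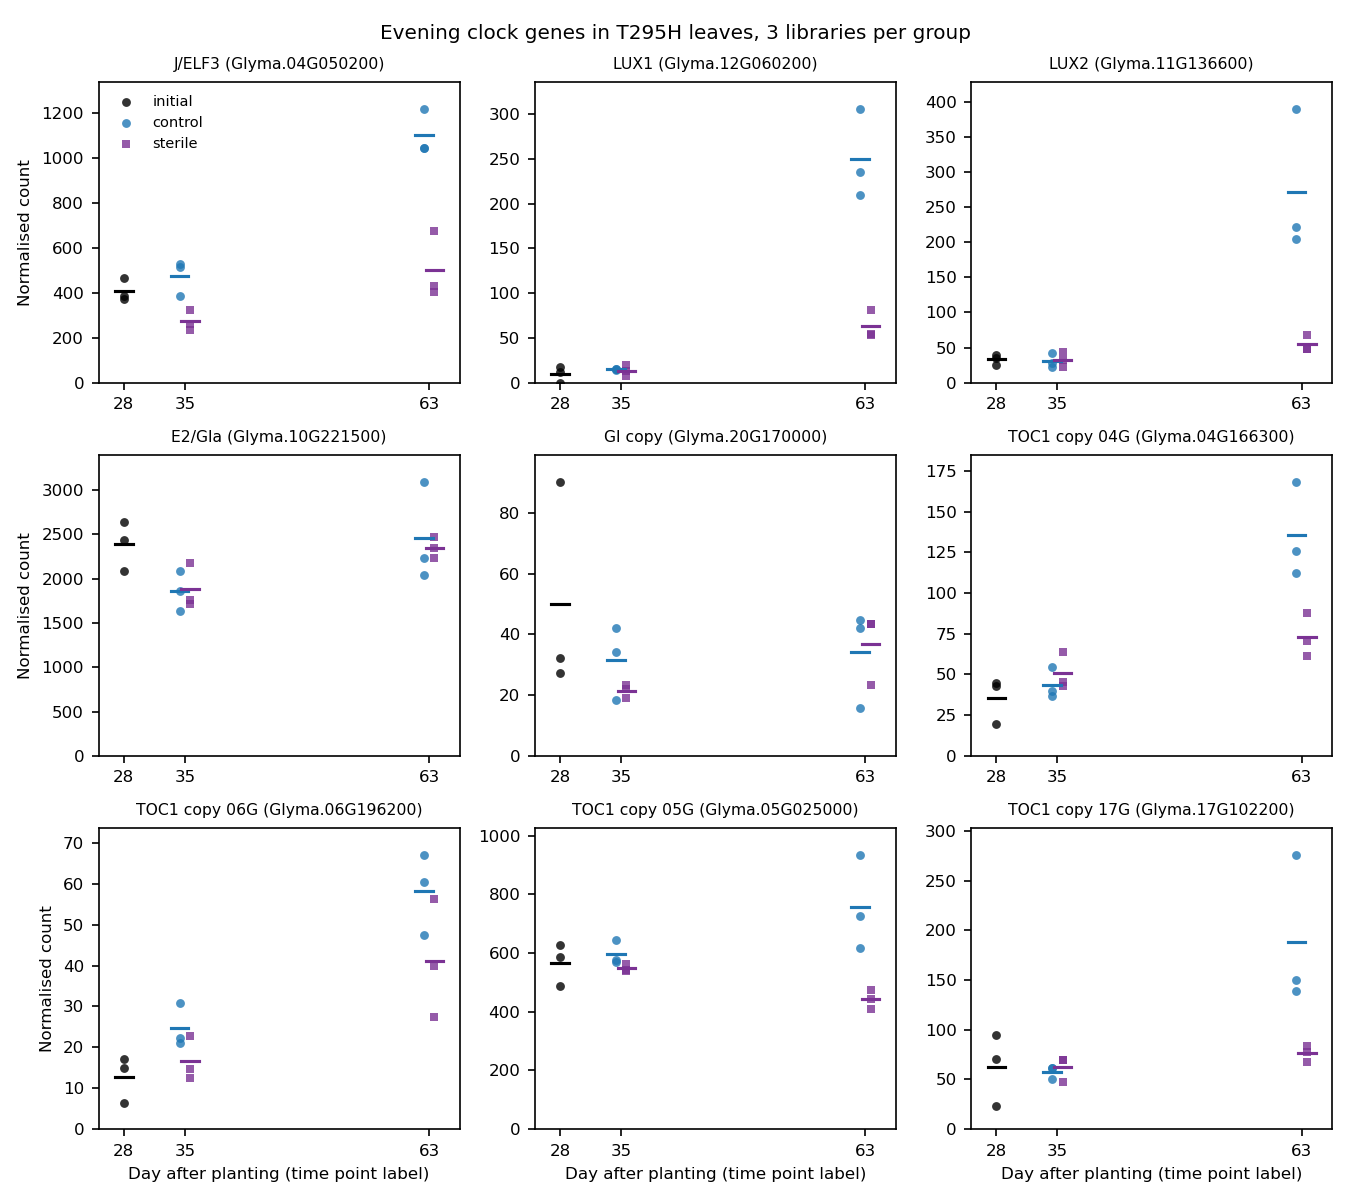
Normalised counts of the 9 genes in the 15 T295H libraries (y axes, from 0) against the day of the time point label (x axes); points are libraries and short lines are means of 3. ELF3, both LUX genes and 3 TOC1 copies are lower in sterile libraries (squares) than in controls (circles) at day 63 with no overlap, while E2/GIa overlaps.

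The LUX genes, the DNA-binding partners in the evening complex, had the largest log2 differences of the 9 genes between sterile and control leaves of day 63. LUX2 stood at 48.3, 48.2 and 67.5 in sterile leaves of day 63 and at 221, 390 and 204 in controls. The sterile mean was 54.7 ± 11.1 and the control mean 272 ± 103 (SD, n = 3), 4.98-fold lower in sterile leaves (log2 change -2.25, SE 0.33, adjusted p 5.05e-05). At day 35 both groups overlapped, at 43.0, 32.2 and 21.9 against 22.6, 28.0 and 41.6 (log2 change 0.07). The effect differed between the days by -2.32 on the log2 scale (SE 0.47, adjusted p 0.00194).

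LUX1 stood at 53.2, 54.8 and 81.5 in sterile leaves of day 63 and at 210, 306 and 235 in controls, with no overlap. The means of 63.2 ± 15.9 and 250 ± 49.7 (SD, n = 3) gave a log2 change of -1.98 (SE 0.76, adjusted p 0.0412). This call was lost without any 1 of the 6 libraries, with adjusted p-values of 0.0575 to 0.109, while the log2 change stayed between -2.17 and -1.83. The SE is that of the shared fit, so it also holds the spread of the initial libraries, at 12.4, 0 and 17.2. Without the initial library at 0, the SE of LUX1 in controls of day 63 against initial leaves was 0.36. The lost calls therefore do not reflect the spread of these 6 libraries alone. The difference of its effect between the days, -1.73 (SE 1.08), did not pass with limma (adjusted p 0.255) and passed with edgeR (0.0336) and DESeq2 (0.00378). A limma fit of only the groups compared, which leaves out the initial libraries, also called it (adjusted p 0.00876).

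Both LUX genes rose with age in T295H controls. LUX1 stood at 12.4, 0 and 17.2 in initial leaves, a total of 26 recovered counts, and at 14.4, 15.8 and 14.8 in controls of day 35. Its log2 change from initial leaves to controls of day 63 was 5.31 (SE 0.76, adjusted p 2.03e-05), and the initial library at 0 is replicate 2, the one that stands apart. Without that library the log2 change was 3.99 (SE 0.36, adjusted p 4.38e-07), and without replicate 3 it was 6.08 (adjusted p 3.36e-06). From controls of day 35 to those of day 63, the change was 3.96 (SE 0.76, adjusted p 0.000363) for LUX1 and 3.09 (SE 0.33, adjusted p 1.22e-06) for LUX2. Within the sterile plants, the same span gave 2.22 for LUX1 (adjusted p 0.0432, lost without any 1 of the 6 libraries) and 0.77 for LUX2 (adjusted p 0.0999). That test of LUX1 also uses the spread shared with the initial libraries. The log2 ratio of LUX1 to LUX2 was 0.20 ± 0.07 in sterile and -0.07 ± 0.28 in control libraries of day 63 (SD, n = 3). They differed by 0.27, with an exact two-sided permutation p of 0.3, where 3 against 3 libraries cannot go below 0.1.

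In Williams 82, LUX1 separated the late libraries by their title number. It stood at 36.9, 38.9 and 62.1 in the depodded libraries labelled day 64 and at 5.77, 5.95 and 2.85 in controls of day 64. In the depodded libraries labelled day 76 it stood at 1.64, 4.47 and 1.84, and in controls of day 76 at 15.6, 72.2 and 64.0. By the time point label, depodded leaves were thus 9.46-fold higher at day 64 (log2 change 3.01, SE 0.75, adjusted p 0.00329) and 19.1-fold lower at day 76 (log2 change -3.64; with no filter on low values, SE 0.73 and adjusted p 0.000403). Without control replicate 1 of day 76, the latter log2 change was -4.32. By the title number both differences went: -0.71 at number 4 (adjusted p 0.562) and 0.09 at number 5 (adjusted p 0.949).

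The 6 late libraries with number 5 lay between 15.6 and 72.2 for LUX1 (median 50.5), and the 6 with number 4 between 1.64 and 5.95 (median 3.66). No library of one number overlapped the other, in depodded and control leaves alike. Of all genes tested, 8.16% were higher in every number 5 library and 7.74% lower. Controls of day 76 exceeded controls of day 64 by 2.92 on the log2 scale (with no filter, SE 0.73 and adjusted p 0.00468), or by 3.61 without replicate 1 of day 76, and depodded number 5 exceeded depodded number 4 by 3.73 (SE 0.75, adjusted p 0.000783). These contrasts share no library, and both were added after the values were seen. At number 4 the LUX1 values are low, with 16 recovered counts in all 3 control libraries and 8 in the depodded ones, so the folds are imprecise. The means of the earlier Williams 82 groups, from 3.25 to 7.11, were as low.

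Among all genes, the same comparison of numbers gave 9635 calls between controls and 8054 between depodded groups, of which 4122 went the same way and 123 the opposite way. The shared calls were 42.8% of the control list and 51.2% of the depodded list. By the time point label, 35.8% of all genes were called between depodded and control leaves at day 64 and 46.3% at day 76. By the title number the shares were 13% at number 4 and 28.3% at number 5. Of the 9 genes, the label gave 2 higher at day 64, LUX1 and the GI copy. At day 76 it gave 1 lower of the 8 genes other than LUX1, again the GI copy, whose effect differed between the labels (43.1% of all genes called). The title number gave 1 lower at number 4 and 0 of 9 at number 5, where no gene had an unadjusted p under 0.05.

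**Figure D3:**
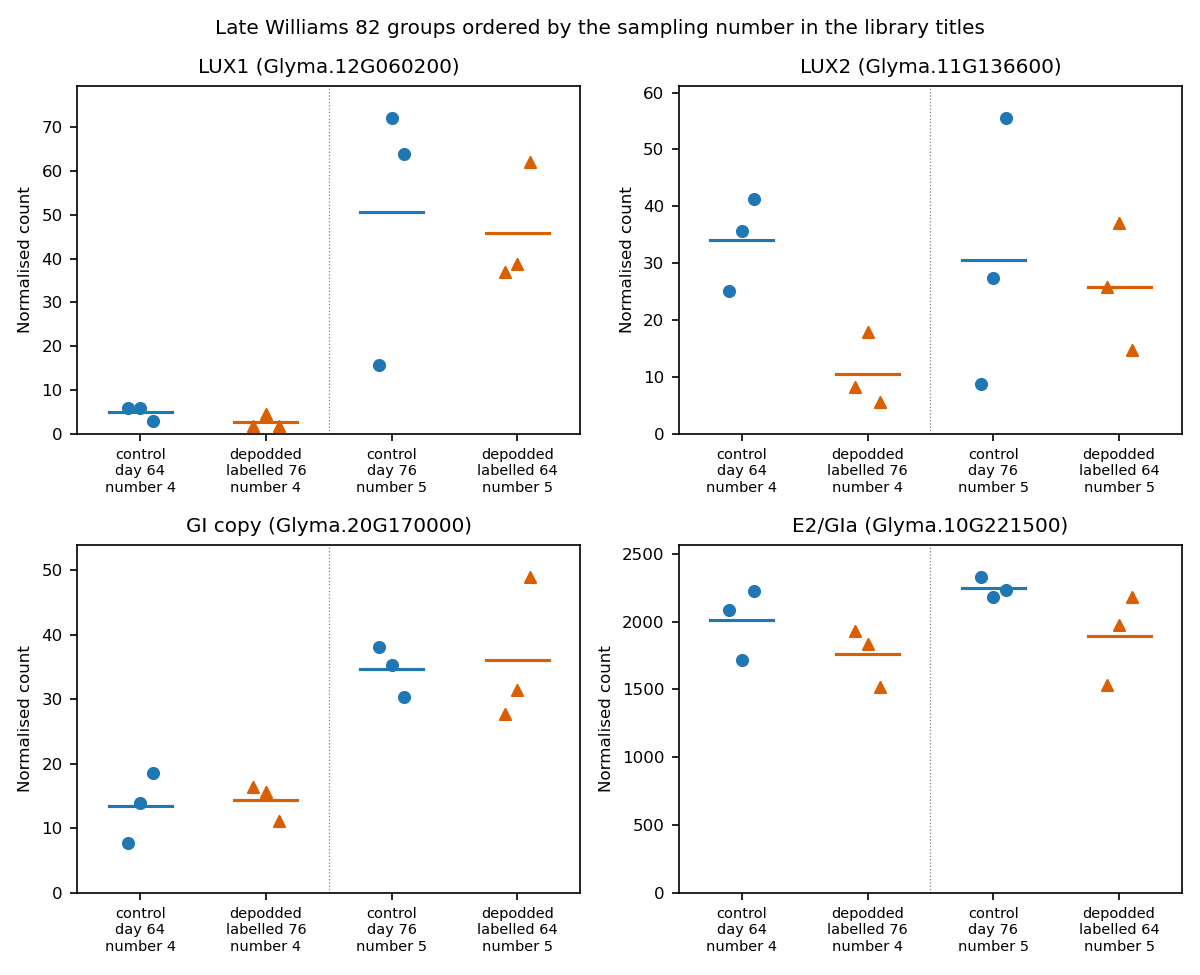
Normalised counts (y axes, from 0) of LUX1, LUX2, the GI copy and E2/GIa in the 12 late Williams 82 libraries, grouped by the number in the library titles; points are libraries and lines are means of 3. LUX1 lies between 15.6 and 72.2 at number 5 and between 1.64 and 5.95 at number 4 in control and depodded libraries alike, and the GI copy divides the same way, while LUX2 and E2/GIa overlap.

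The LUX2 libraries of both title numbers overlapped, and its lowest Williams 82 groups were depodded. At day 45, the first sampling after depodding, it stood at 16.1, 5.92 and 5.12 in depodded leaves and at 31.5, 25.1 and 42.4 in controls, with no overlap, as did 6.34% of all genes tested in that direction. The log2 change of -1.89 (SE 0.54) had an unadjusted p of 0.00199 and an adjusted p of 0.237. At day 54 the groups overlapped (log2 change 0.00, SE 0.54). At number 4, the depodded libraries held 8.21, 17.9 and 5.52 and the controls 25.02, 35.7 and 41.3, a log2 change of -1.72 (SE 0.54, adjusted p 0.0389), the 1 call of the 9 genes by title number. Low counts limit both differences: the 3 depodded libraries held 24 recovered counts in all at day 45 and 32 at number 4. At number 5 the values were 25.8, 37.0 and 14.7 against 8.67, 27.3 and 55.6, a log2 change of 0.02 (adjusted p 0.988).

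Over both late samplings, LUX2 differed by -0.85 in depodded leaves (SE 0.38, adjusted p 0.0921). DESeq2 gave an adjusted p of 0.0359 for it, and limma called it without control replicate 1 of day 76 (-1.19, adjusted p 0.0138) or without depodded replicate 2 labelled day 76 (-1.07, adjusted p 0.0444). The control mean of day 76 was 30.5 with all libraries and 17.98 without replicate 3. The difference between its late effect and that of day 45, 1.04 (SE 0.66, adjusted p 0.343), did not pass, nor did that of any other of the 9 genes (9.58% of all genes called). For these differences 1 gene, the GI copy, had an unadjusted p under 0.05, and edgeR and DESeq2 called 0 of the 9. Of all 29208 genes, edgeR called 1755 higher and 1088 lower there, and DESeq2 2350 and 1788.

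The log2 ratio of LUX1 to LUX2 within a library, with 1 added to each count, was 0.82 ± 0.74 over the 6 late libraries with number 5 and -2.10 ± 0.77 over the 6 with number 4 (SD). The difference of 2.92 is a description with no test, since LUX1 itself had shown the division by number. Between late depodded and late control libraries the ratio differed by 0.54 (exact two-sided permutation p 0.593, and 0.593 after adjustment over 4 copy pairs). The LUX2 values of both numbers overlapped.

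E2/GIa, the GI gene at the E2 maturity locus, rose with age in Williams 82, while no T295H comparison of it passed limma's test. In Williams 82 it stood at 857, 884 and 1012 in initial leaves and at 2333, 2180 and 2234 in controls of day 76, with no overlap. The means of 918 ± 82.9 and 2249 ± 77.4 (SD, n = 3) gave a log2 change of 1.3 (SE 0.18, adjusted p 5.19e-06). The climb was already called at day 54 (0.57, SE 0.18, adjusted p 0.016) and at day 64 (1.12, SE 0.18, adjusted p 4.4e-05), but not at day 45 (0.09). The call of day 54 was lost without initial replicate 1 (adjusted p 0.0537), without control replicate 1 of day 54 (0.112) and in a fit of only these 6 libraries (0.117).

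E2/GIa was not called in any comparison of depodded with control leaves. Depodded leaves differed from controls by -0.03 on the log2 scale at day 45, 0.20 at day 54 and -0.23 over both late samplings (SE 0.13, adjusted p 0.191). Late depodded leaves also exceeded the initial leaves, by 0.98 (SE 0.16, adjusted p 4.99e-05). By the label of day 76, every depodded library (1930, 1832 and 1521) was below every control, with a log2 change of -0.36 (SE 0.18, adjusted p 0.112). This lack of overlap depended on the label: by the title number, the depodded and control libraries of E2/GIa overlapped at number 4 and at number 5. In T295H the group means ran only from 1864 ± 226 in controls of day 35 to 2456 ± 559 in controls of day 63 (SD, n = 3). That span of 0.40 on the log2 scale was wider than that of 4.63% of the genes tested in that line. Sterile and control leaves of day 63 differed by -0.04 (SE 0.18, adjusted p 0.87).

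The GI copy Glyma.20G170000 behaved unlike E2/GIa in the late Williams 82 leaves and followed the title number, as LUX1 did. It stood at 27.6, 31.5 and 49.0 in the depodded libraries labelled day 64 and at 7.70, 13.9 and 18.5 in controls of day 64. In the depodded libraries labelled day 76 it stood at 16.4, 15.7 and 11.03, and in controls of day 76 at 38.1, 35.3 and 30.3. By the label, it was 2.70-fold higher in depodded leaves at day 64 (log2 change 1.40, SE 0.43, adjusted p 0.0135) and 2.41-fold lower at day 76 (log2 change -1.22, SE 0.43, adjusted p 0.0225). By the title number the differences were 0.16 at number 4 (adjusted p 0.846) and 0.02 at number 5 (adjusted p 0.979).

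All 6 number 5 libraries, from 27.6 to 49.0, were above all 6 number 4 libraries, from 7.70 to 18.5. Controls of day 76 exceeded those of day 64 by 1.38 (SE 0.43, adjusted p 0.0157), and depodded number 5 exceeded depodded number 4 by 1.24 (SE 0.43, adjusted p 0.0327). These calls are thin. By the label, that of day 64 was lost without depodded replicate 3 (adjusted p 0.0739) or control replicate 1 (0.088). That of day 76 was lost without depodded replicate 3 (0.0806) or control replicate 1 (0.0683) or 2 (0.0523). Between the numbers, the call in depodded leaves was lost without any 1 of 5 of the 6 libraries, with adjusted p-values from 0.0519 to 0.148, and that in controls without replicate 1 of day 64 (0.0935) or of day 76 (0.0538).

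The log2 ratio of E2/GIa to the GI copy was 5.85 ± 0.24 in number 5 and 7.03 ± 0.44 in number 4 libraries (SD, n = 6 each). The difference of -1.18 is likewise a description, since the GI copy itself divides the libraries by number. The same ratio differed by -0.31 between late depodded and late control libraries (exact permutation p 0.435, adjusted 0.58). Both ratios that divide by title number involve a member with low counts.

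**Figure D4:**
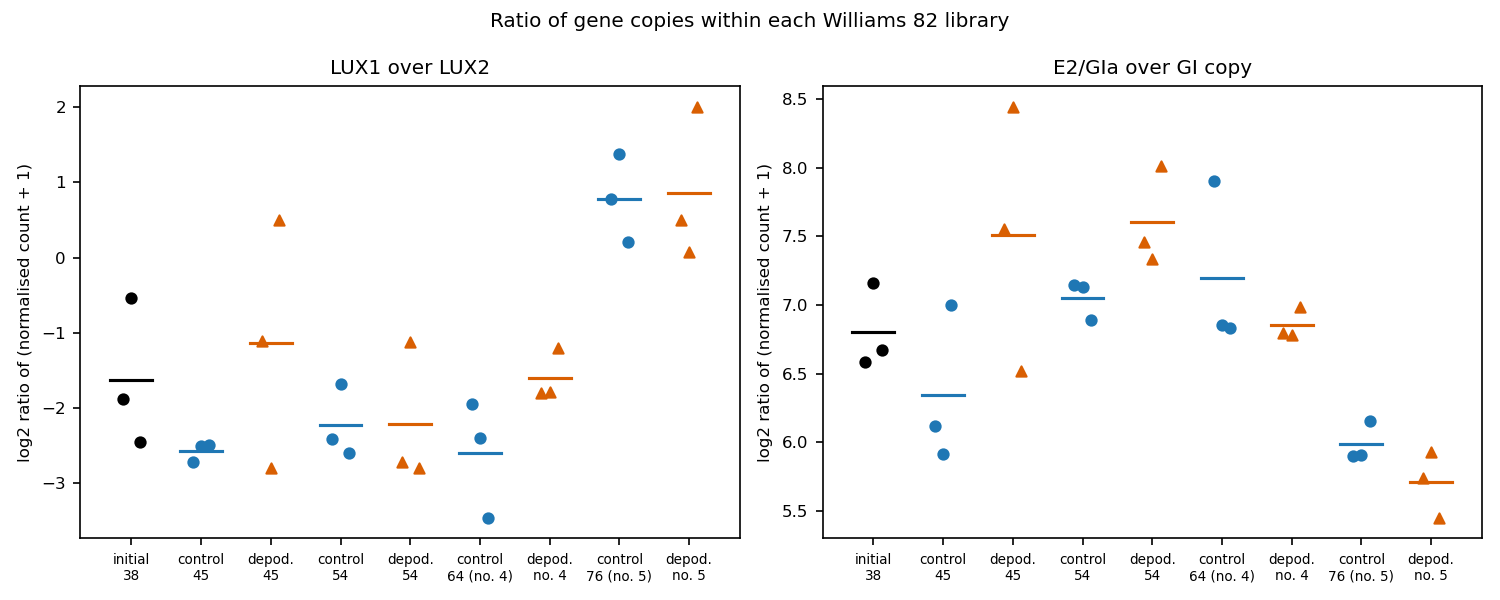
log2 ratio of (normalised count + 1) between gene copies in each Williams 82 library, LUX1 over LUX2 and E2/GIa over the GI copy; points are libraries, lines are means of 3, and the late groups are ordered by title number. Ratios of LUX1 to LUX2 average 0.82 at number 5 and -2.10 at number 4, and those of E2/GIa to the GI copy 5.85 and 7.03.

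Earlier in Williams 82, at day 45, the GI copy stood at 4.59, 1.97 and 7.68 in depodded leaves and at 13.8, 14.4 and 6.69 in controls. These groups overlapped, and the log2 change of -1.20 (SE 0.43) had an unadjusted p of 0.01 and an adjusted p of 0.347. It rose with age from a mean of 7.36 in initial leaves to 34.6 ± 3.95 in controls of day 76 (SD, n = 3), by 2.11 on the log2 scale (SE 0.43, adjusted p 0.000332). In T295H no comparison of this gene passed. Its initial libraries were uneven, at 27.3, 90.1 and 32.3, with a mean of 49.9 that is 29.8 without replicate 2. Sterile and control leaves of day 63 differed by 0.18 (SE 0.49, adjusted p 0.783).

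The TOC1 copies, the repressors of morning clock genes, were lower in sterile leaves of day 63 in 3 of 4 cases. Copy 05G stood at 443, 410 and 472 in sterile leaves and at 725, 933 and 616 in controls. The means were 442 ± 31.1 and 758 ± 161 (SD, n = 3), a log2 change of -0.76 (SE 0.16, adjusted p 0.00092) with no overlap. Copy 17G stood at 83.8, 78.0 and 67.5 against 150, 276 and 139 (log2 change -1.22, SE 0.40, adjusted p 0.0187). Copy 04G stood at 61.2, 88.0 and 70.3 against 126, 168 and 112 (log2 change -0.87, SE 0.32, adjusted p 0.0313).

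Both of the latter groups were also free of overlap, but their calls rest on single libraries. That of 17G was lost without sterile replicate 3 (adjusted p 0.0573) or control replicate 2 (0.0956). That of 04G was lost without sterile replicate 1 (0.104) or 3 (0.073) or without control replicate 1 (0.0569) or 2 (0.119). Copy 06G overlapped, at 27.4, 39.9 and 56.2 against 67.0, 60.5 and 47.4 (log2 change -0.54, SE 0.40, adjusted p 0.278). That 06G missed the threshold does not show that it differed from the other copies. The ratio of 04G to 06G differed by -0.34 between sterile and control libraries, with an exact permutation p of 0.4.

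At day 35 no TOC1 copy was called in sterile leaves. Copy 05G was at 539, 563 and 541 against 577, 643 and 570, a log2 change of -0.12 (SE 0.16, adjusted p 0.797). Its groups did not overlap, although they differed little. The effect on 05G differed between the days by -0.64 (SE 0.22, adjusted p 0.0436), a call lost with other scaling and without most single libraries. For 17G and 04G the differences were larger, -1.31 and -1.08, but did not pass with limma (adjusted p 0.0981 and 0.0863). DESeq2 called both (0.0418 and 0.0317), as did a limma fit of only the groups compared (0.0135 and 0.0278). With age, all 4 copies rose in T295H controls from initial leaves to day 63. The log2 changes were 1.96 for 04G (adjusted p 6.21e-05), 2.18 for 06G (0.000189), 1.70 for 17G (0.00157) and 0.40 for 05G (0.0339). The call of 05G was lost without initial replicate 3 (0.124), control replicate 1 (0.0543) or control replicate 2 (0.173), and in a fit of only these 6 libraries (0.142). Sterile leaves of day 63 exceeded initial leaves for 04G (1.09, adjusted p 0.015) and 06G (1.65, adjusted p 0.00491). The call of 04G was lost without initial replicate 2, the library that stands apart (0.0663), and without sterile replicate 2 (0.0642). A limma fit of only the groups compared called neither 04G (0.0922) nor 06G (0.0563).

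In Williams 82, all 4 TOC1 copies lay higher in every depodded than in every control library of day 54, but none was called. Copy 04G stood at 32.3, 41.7 and 23.6 in depodded leaves and at 20.47, 17.5 and 5.07 in controls (log2 change 1.29, SE 0.49, adjusted p 0.202). Copy 05G stood at 245, 206 and 187 against 145, 168 and 109 (log2 change 0.60, SE 0.35, adjusted p 0.425). Copies 17G and 06G had log2 changes of 0.77 (adjusted p 0.331) and 0.54 (adjusted p 0.732). Among all genes tested at that day, 16.1% lay higher without overlap, so the 4 of 9 stand above that share in count, yet copies of 1 family are not independent of each other. Over both late samplings the changes were 0.29, -0.25, -0.08 and 0.37 for 04G, 06G, 05G and 17G, and the groups overlapped for each.

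**Figure D5:**
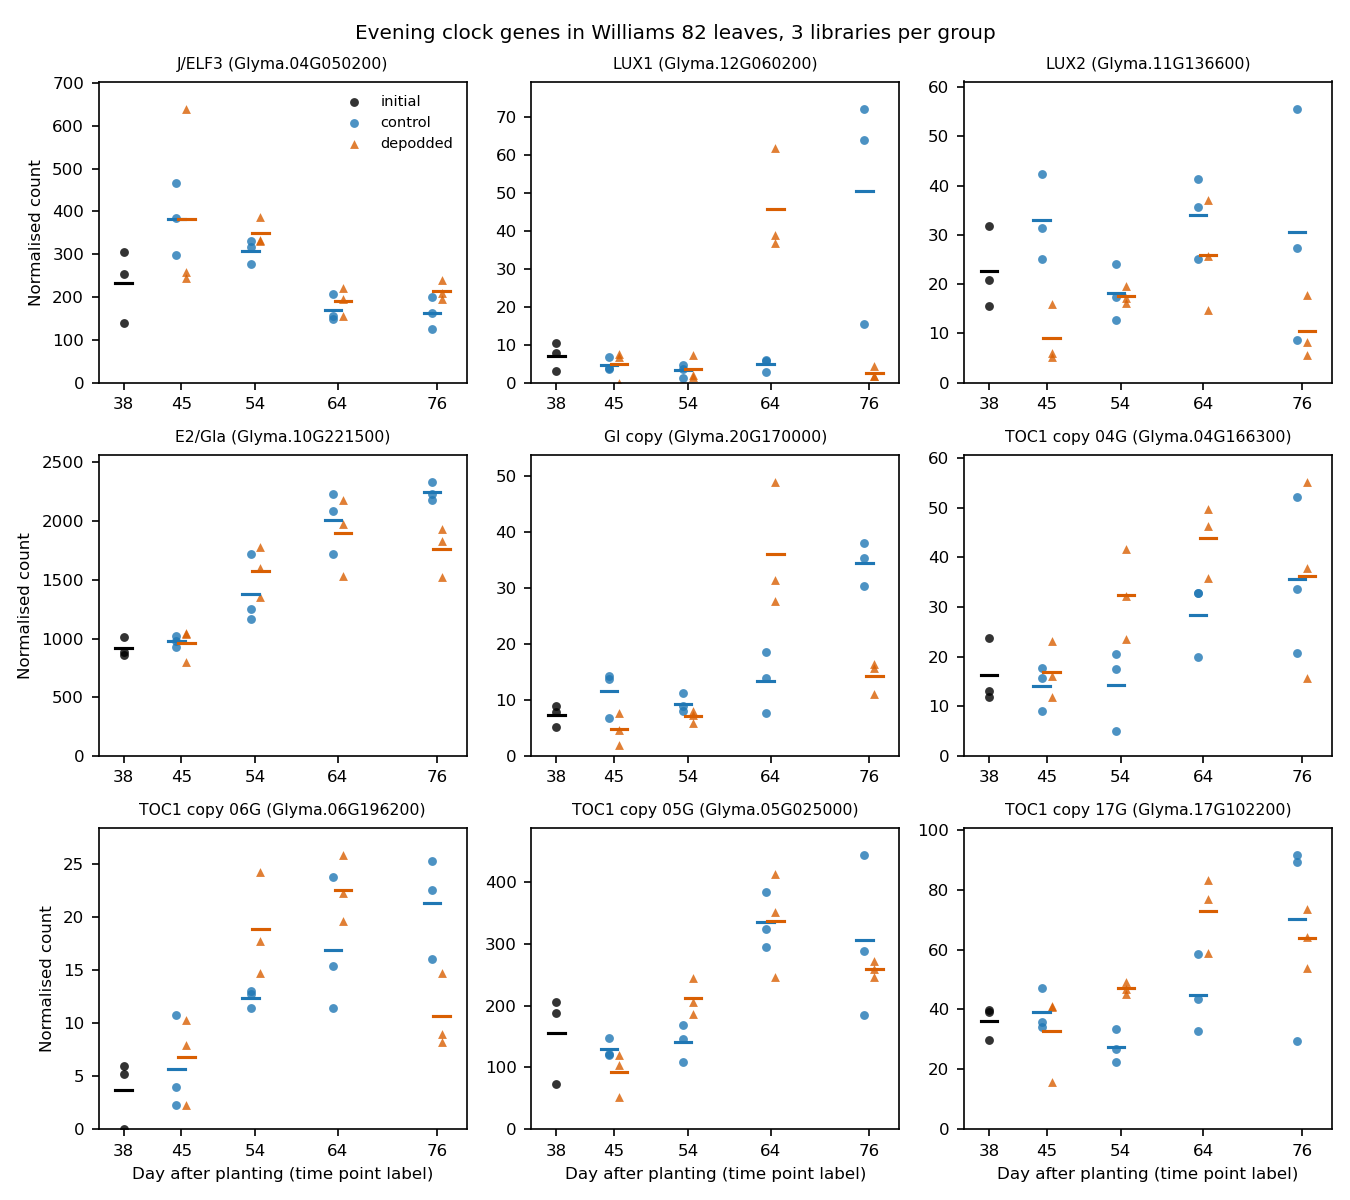
Normalised counts of the 9 genes in the 27 Williams 82 libraries (y axes, from 0) against the day of the time point label (x axes); points are libraries and short lines are means of 3. E2/GIa climbs from 918 in initial leaves to 2249 in controls of day 76, the 4 TOC1 copies are higher in depodded leaves at day 54 with no overlap, and LUX1 and the GI copy are high in depodded leaves labelled day 64 and in controls of day 76.

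Of the TOC1 copies, limma called 06G and 05G higher with age in Williams 82, and whether the copies differed from each other in this was not tested. From initial leaves to controls of day 76, copy 06G rose by 2.64 on the log2 scale (SE 0.61, adjusted p 0.00128), from 0, 5.2 and 5.96 to 22.5, 16.1 and 25.3. Without the initial library at 0 (replicate 1), the log2 change was 1.74 (SE 0.54, adjusted p 0.0143). Copy 05G rose by 1.02 (SE 0.35, adjusted p 0.0213), from 206, 72.8 and 188 to 185, 289 and 443, and these groups overlapped. Its call was lost without initial replicate 2 (adjusted p 0.183) or control replicate 3 (0.138). A fit of only these 6 libraries called neither 06G (0.0574) nor 05G (0.159). The changes of 04G (1.05, adjusted p 0.086) and 17G (0.78, adjusted p 0.0969) did not pass with limma. Copy 17G was called by edgeR (0.0372) and DESeq2 (0.0339), and by limma without control replicate 1 (1.31, adjusted p 0.00463). Without that library limma called 04G as well (1.38, adjusted p 0.0466). In late depodded leaves against initial leaves, all 4 copies were called, with log2 changes of 1.22, 2.21, 1.04 and 0.90 for 04G, 06G, 05G and 17G, as were E2/GIa and the GI copy, 6 of 9 where 40.5% of all genes were called. For 06G that log2 change was 1.31 (adjusted p 0.0409) without initial replicate 1. Single libraries ended the calls of 04G, 05G and 17G there, 1 of them initial replicate 2, without which the adjusted p-values were 0.085, 0.129 and 0.0527.

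The calls from initial leaves build up over the control samplings of Williams 82. At day 45, 0 of 9 genes were called with limma, edgeR and DESeq2, with 1 at an unadjusted p under 0.05, where limma called 5.79% of all genes. Of all 29208 genes, edgeR called 571 higher and 700 lower there, and DESeq2 973 and 1513. At day 54, E2/GIa and TOC1 06G were called (41.9% of all genes), and at day 64 E2/GIa, TOC1 06G and TOC1 05G (44.5%). For 06G the initial library at 0 counts: without it (replicate 1), the call of day 54 was lost (1.02, adjusted p 0.147), and the log2 change of day 64 went from 2.29 to 1.38 (adjusted p 0.0477). TMM scaling shifted the median of all genes at day 64 by 0.105 on the log2 scale, and the 3 calls of day 64 stood under it. That of 05G was lost without initial replicate 2 (adjusted p 0.0647). A limma fit of only the initial and day 64 control libraries called neither 05G (0.0546) nor 06G (0.0879). Between controls of successive days none of the 9 was called from day 45 to 54 (27.3% of all genes, 1 at an unadjusted p under 0.05, 1 call each by edgeR and DESeq2). Of all 29208 genes, edgeR called 3915 higher and 4306 lower over that span, and DESeq2 4445 and 4947. From day 54 to 64 none was called either (0.185% of all genes, 4 at an unadjusted p under 0.05, 0 calls by edgeR and 1 by DESeq2). DESeq2 called more of all genes there, 214 higher and 334 lower, against 22 and 32 with limma and 19 and 18 with edgeR.

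The group means of the 9 genes did not share 1 course. In the 5 T295H groups, the log2 means of LUX2 and TOC1 17G correlated at Pearson's r = 0.998, those of LUX1 and TOC1 04G at 0.983, and those of LUX1 and LUX2 at 0.95. In the 9 Williams 82 groups the same pairs gave 0.211, 0.512 and 0.457. ELF3 correlated positively with each of the other 8 genes in T295H, from 0.335 to 0.911, and negatively with each in Williams 82, from -0.855 to -0.416. The Williams 82 pairs with the highest r were TOC1 04G with 17G, at 0.916, and E2/GIa with TOC1 06G, at 0.911. These are descriptions over 9 and 5 group means that share their libraries.

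In each family, 1 member was taken by its mean normalised count in Williams 82, the highest of the family; this mean is not corrected for gene length and served only to choose the gene. For each member taken, the non-members of most similar course were looked up among the 17533 genes whose mean reached 50 in both tables. For ELF3 they were Glyma.09G104200 (Pearson's r = 0.954 over 9 Williams 82 group means, 0.274 over 5 T295H group means) and Glyma.08G045700 (0.912 and 0.928). For LUX2 they were Glyma.16G177400 (0.921 and 0.476) and Glyma.07G072300 (0.892 and -0.828). For E2/GIa they were Glyma.08G087800 (0.992 and 0.17) and Glyma.07G029900 (0.992 and 0.618), and for TOC1 05G they were Glyma.12G120400 (0.993 and 0.661) and Glyma.03G115100 (0.977 and -0.394). All 8 were picked by their Williams 82 r, so those values are high by selection. In T295H, Glyma.08G045700 had the highest r of the 8, over only 5 group means, while the r of the others ran from -0.828 to 0.661. How many of all genes reach such an r in T295H was not counted.

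Set against all genes, the spread of group means was widest for LUX1. Its highest group mean was 3.82 above its lowest on the log2 scale in Williams 82, wider than in 87.8% of the genes tested. That highest group, the controls of day 76, is the one through which LUX1 passed the filter. Its Williams 82 rank was therefore fixed in part by the filter and is only a description. In T295H, where LUX1 passed without its highest group as well, the span was 4.53, wider than in 90.3%. LUX2 spanned 1.80 in Williams 82 (50.7%) and 3.1 in T295H (80.7%), and ELF3 1.23 (26.3%) and 2.02 (65.4%). The GI copy spanned 2.69 in Williams 82 (73.9%) and 1.19 in T295H (40.5%).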

How the data were processed

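RNA sequencing of leaves gave 1 deposited table per line. The deposited values are a signal per gene and library, and each column holds whole multiples of 1 step, as counts divided by a size factor give. Bowtie2 and DESeq2 are named, without version, in the submitters' processing notes. Not given in the sources used here are the genome build, annotation, counting tool and use of strand, so reads shared between near-identical copies, which the LUX, GI and TOC1 copies may be, or with antisense genes cannot be recognised. After division by that step, 100% of values were whole numbers within 0.01, and 98.8% to 99.2% of counts above 0 were even in every library. Why is not given, so a count was not taken as an independent observation.

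The identifiers of the T295H table carry an ending that was removed. The main test was limma 3.58.1 in R 4.3.3 (lmFit, contrasts.fit, eBayes with a trend) on log2(value + 1), for genes with a table mean of at least 10, 29208 in Williams 82 and 29370 in T295H, with all groups of a table in 1 fit. The scripts were tested on simulated data. Alternatives were a pseudocount of 5, a mean of at least 50 or no filter, TMM scaling, only the groups compared, a replicate block, edgeR 4.0.16 and DESeq2 1.42.0 on recovered counts, days by title number, and leaving out each replicate. Copy ratios, log2((a + 1)/(b + 1)), were tested by exact permutation over libraries, 4 pairs a family of tests, except between title numbers, where they are described only.

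The named genes are the 9 members and, per family, the 2 non-members whose Williams 82 group means correlate best with those of its highest member. The members, lists and tests were chosen with earlier results of these data known. Comparisons between controls of successive days, between title numbers and between days within T295H were added after values were seen. None of the 39557 identifiers matched the 59048 genes of the RefSeq table (Glycine_max_v4.0), so a list of other clock genes and the leaf, seed and nodule markers were not used here, the leaf label could not be checked, and no sequence is printed.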

Additional observations from a re-analysis of the deposited data

Results flagged for a closer look

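The difference of the depodding effect between the labels of day 76 and day 64 was -6.65 on the log2 scale for LUX1. LUX1 entered this comparison through its high values in controls of day 76, and with no filter on low values the difference had an adjusted p of 2.47e-05 (limma). Without control replicate 1 of day 76 it was -7.33. For the GI copy the difference passed limma's test, at -2.62 (SE 0.60, adjusted p 0.00128), where 43.1% of all genes were called. By the title number, the difference was 0.80 for LUX1 (adjusted p 0.705) and -0.14 for the GI copy (adjusted p 0.923).

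With limma, the sterility effect differed between days 63 and 35 for LUX2, at -2.32 (SE 0.47, adjusted p 0.00194), and for TOC1 05G, at -0.636 (SE 0.22, adjusted p 0.0436). There 27.1% of all genes were called. The call of TOC1 05G was lost with TMM scaling (adjusted p 0.0834), with edgeR (0.0771) and without any 1 of 10 of the 12 libraries (0.0532 to 0.0972). LUX1 and the TOC1 copies 17G and 04G had larger differences than 05G but did not pass in the main fit. DESeq2 and a limma fit of only the groups compared called each of them.

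TOC1 05G was higher in every depodded than in every control library of Williams 82 at day 54, with a log2 change of 0.604, and lower in every sterile than in every control library of T295H at day 35, with a log2 change of -0.12. Neither change passed its own test, and the difference between the lines was not tested because the tables were normalised separately.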

How the results depend on the processing

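Of 3233 alternative values for single genes, 2972 kept the direction and the side of the threshold of the main value, 136 moved without a test at stake, 82 lost and 39 gained a call, and 4 reversed, all 4 by the title number: LUX1 by the label of day 64 (-0.7137), LUX1 (0.08932) and the GI copy (0.02086) by the label of day 76, and LUX1 in the difference between the labels (0.803). The counts below are of called members, LUX1 included, although it passed the Williams 82 filter only through controls of day 76. They show how far a count moved and are no result about the members, since the calls among all genes moved too. For the difference of the sterility effect, 4430 of 29370 genes were called higher and 3515 lower in the main fit. With only the groups compared these were 5397 and 4571, and with DESeq2 5158 and 4056. With a mean of at least 50, which leaves fewer members to test, they were 0 at both late labels, between both late controls, between both late depodded groups and for the difference between the labels, 2 for controls of day 76 and for late depodded against initial leaves, 1 for day 54 against initial leaves and 1 between controls of days 54 and 45. By the title number they were 1 and 0 for the labels of day 64 and 76 and 0 for their difference. In fits of only the groups compared they were 3, 1 and 0 for controls of days 76, 64 and 54 against initial leaves, 1 for sterile leaves of day 35, 0 for sterile leaves of day 63 against initial leaves and 5 for the difference of the sterility effect, which was also 5 with DESeq2 and 1 with no filter or TMM scaling. DESeq2 gave 1 for the pooled late depodding comparison, for sterile leaves of day 35 and between controls of days 64 and 54. TMM scaling, edgeR and DESeq2 gave 1 between controls of days 54 and 45.
Leaving out 1 library gave 0 to 0 calls for depodding at days 45 and 54, for the late minus day 45 difference, between controls of days 64 and 54 and for sterile leaves of day 35; 1 to 2 at the label of day 64, between both late controls, between both late depodded groups, within sterile leaves and for the sterility difference; 1 to 3 at the label of day 76; 0 to 1 for the pooled late comparison, controls of day 45 against initial leaves and controls of day 54 against 45; 4 to 7, 2 to 3 and 0 to 2 for controls of days 76, 64 and 54 against initial leaves; 3 to 6 for late depodded against initial leaves; 2 to 3 for the difference between the labels; 3 to 5 for sterile leaves of day 63; 6 to 7 and 0 to 2 for T295H controls of days 63 and 35 against initial leaves; 2 to 4 for sterile day 63 against initial leaves; and 5 to 8 between T295H controls.
Without single libraries, the ratio of TOC1 05G to 17G differed by -0.626 to -0.3024 between late depodded and control libraries, and that of E2/GIa to the GI copy by -0.5333 to 0.1243 between sterile and control libraries of day 63.
No general pairing by replicate number was seen: deviations of same-numbered libraries correlated at a mean of -0.00896 in Williams 82 and 0.013 in T295H. Single pairs of libraries reached 0.534 in Williams 82, where 25 of 108 exceeded 0.1, and 0.228 in T295H, where 7 of 30 did. Pairing between particular groups was not tested. With the replicate block the count was 6 for sterile leaves of day 63 and equal to the main count in every comparison. Low counts limit LUX1, the GI copy and TOC1 06G most: a floor of 6 recovered counts (3 pairs) equals 3.8 to 11.9 normalised counts, depending on the Williams 82 library, for counting error only.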
